A study of Mus musculus with 6 samples.

Results

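Type I interferon-stimulated genes are the genes that a cell transcribes when it senses type I interferon, and most of their products block a step of virus growth. The set described here holds 47 such genes, matched by gene symbol in a deposited table of 54532 mouse genes. All 47 passed a filter on low values, a mean of at least 1 FPKM over the 6 libraries, as did 9794 genes in all. FPKM is the number of sequenced fragments on a gene per kilobase of its length, scaled for the size of the library, so that levels of different genes can be compared per length.

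The RNA came from wild-type macrophages of the peritoneal cavity, cultured from mice that the methods describe as C57BL/6J, 6 to 8 weeks old and injected with thioglycolate to recruit macrophages. Control cells received no treatment. In the Model group, LPS, the bacterial ligand of TLR4, was given at 500 ng/mL for 5.5 h and was followed for 0.5 h by 2 mM ATP, which sets off the NLRP3 inflammasome. The MUS group had LPS + ATP at these doses together with 50 μM muscone, the macrocyclic ketone of musk, which was added 5 h after LPS and 0.5 h before ATP. Each group had 2 libraries, and the labels give replicate 1 and replicate 2 as batch 1 and batch 2. The sources do not say whether the 2 libraries came from separate mice or cultures, so the p-values measure the spread between these libraries, which may be technical. No group with interferon added or with its receptor blocked was analysed here.

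As background, TLR4 at the endosome signals through the adaptor TRIF and the kinase TBK1 to IRF3, which switches on the gene of interferon-β. Secreted interferon-β binds the receptor IFNAR on the same and neighbouring cells, and the kinases TYK2 and JAK1 then activate the transcription factor complex ISGF3, which binds the interferon-stimulated response element (ISRE) in the promoters of interferon-stimulated genes. In macrophages this loop is a well known second wave of the LPS response.

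The promoters of the set carry the ISRE letters more often than promoters in general. RefSeq promoters on GRCm38.p6, each 250 bases before to 50 bases after a start site, were matched to 38 of the 47 genes. The ISRE core GAAANNGAAA, read on either strand, was found in 17 of these 38 genes (44.7%), against 3.99% of 27025 gene symbols. The longer form GAAANNGAAACT, which contains the core, was found in 8 of 38 (21.1%), against 0.303%. The gamma-activated sequence TTCNNNGAA, called GAS, was found in 7 of 38 (18.4%), against 9.55%, and the NF-κB motif in 4 of 38 (10.5%), against 5.14%. A match is a description of letters, and no binding was measured in this study. Promoters were not matched for Mx1, Parp14, Oas2, Rtp4, Ifi204, Mx2, Parp9, Dhx58 and Tor3a.

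The stretches below, read 5′ to 3′ on the strand of the gene and ending before its start site, are a selection from the genes with a core there. Close relatives are among them, of which Ifi213 and Ifi207 responded unequally. The selection does not follow the size of the response to LPS + ATP. Bst2 and Ifi207 had log2 fold changes of 3.13 and 1.30 in Model vs. Control, below the median of 3.77 in the set. Capitals mark the ISRE core in either orientation, and cores that overlap run together.
Ifit1 (chr19:34640755-34640843, plus strand): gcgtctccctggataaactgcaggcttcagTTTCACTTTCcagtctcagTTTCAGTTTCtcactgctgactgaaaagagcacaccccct
Ifit3 (chr19:34583343-34583446, plus strand): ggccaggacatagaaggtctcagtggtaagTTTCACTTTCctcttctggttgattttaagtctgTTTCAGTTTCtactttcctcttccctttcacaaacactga
Ifit3b (chr19:34607739-34607842, plus strand): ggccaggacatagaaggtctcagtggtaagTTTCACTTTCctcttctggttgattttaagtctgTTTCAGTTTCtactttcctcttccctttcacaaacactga
Rsad2 (chr12:26456533-26456602, minus strand): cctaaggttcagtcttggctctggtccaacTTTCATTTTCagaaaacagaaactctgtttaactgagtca
Oas1a (chr5:120907526-120907575, minus strand): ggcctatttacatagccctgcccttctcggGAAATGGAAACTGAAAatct
Oas1g (chr5:120887614-120887661, minus strand): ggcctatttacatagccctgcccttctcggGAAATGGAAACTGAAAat
Bst2 (chr8:71537557-71537632, minus strand): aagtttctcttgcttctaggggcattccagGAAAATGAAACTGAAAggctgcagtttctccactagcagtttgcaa
Ifi213 (chr1:173599306-173599375, minus strand): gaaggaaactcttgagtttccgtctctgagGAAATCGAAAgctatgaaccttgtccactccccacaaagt
Ifi207 (chr1:173741811-173741880, minus strand): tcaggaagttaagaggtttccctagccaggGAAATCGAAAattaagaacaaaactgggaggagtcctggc
Ifit1, Ifit3 and Ifit3b each had 2 separate cores. The stretches of Ifit3 and Ifit3b, neighbours on chromosome 19, were the same in all 104 bases. Oas1a, Oas1g and Bst2 each had 2 overlapping cores, and Ifi213 and Ifi207 had the same core.

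**Figure D1:**
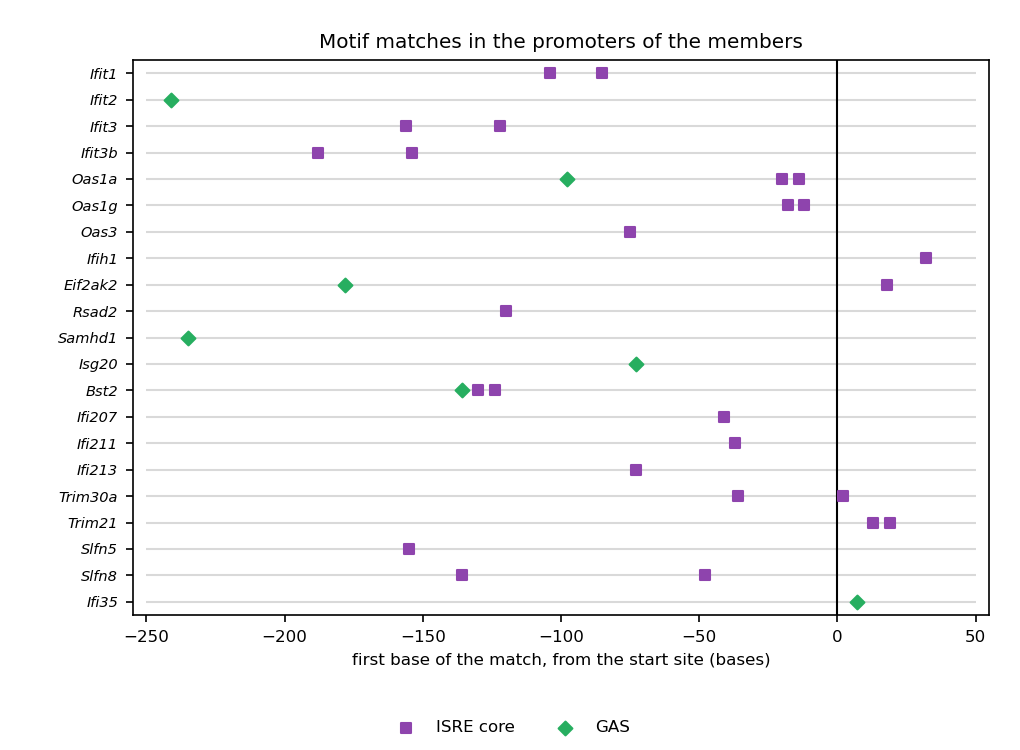
Position of each ISRE core (squares) and GAS match (diamonds) in the promoters of the genes of the set that had one, in bases from the start site at 0, on 1 line per gene. Of the 26 core positions, 21 lay before the start site, and Slfn8 and Trim30a are drawn from both of their start sites. The same core of Slfn8 is counted from each of its start sites.

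Before the comparisons, the libraries were examined for the set as a whole. The fragments on genes, recovered from the table, numbered between 15526321 and 17135442 per library. All 8 macrophage markers were present in every library, with a sum between 9574 and 14283 FPKM, of which Lyz2 alone made 7275 to 12007. The other markers were lower and some moved with treatment. Csf1r, the receptor of the growth factor of macrophages, was 208 and 272 FPKM in Control against 83.4 and 101 in Model, and Fcgr1 was 18.3 and 7.87 against 161 and 147. The 4 T and NK cell markers summed to at most 0.366 FPKM in any library, the 4 B cell markers to at most 1.5 FPKM and the 4 mast cell markers to at most 0.848 FPKM. Plasmacytoid dendritic cells are a rich source of type I interferon, and 3 of their markers outside the set summed to 1.17 and 1.06 FPKM in the Control libraries. This sum was 4.82 and 4.73 FPKM with LPS + ATP and 5.35 and 4.28 FPKM with muscone added. Most of this sum was Tcf4, while Siglech was at most 0.126 FPKM and was at 0 in Control, and Ccr9 was at most 0.535. Bst2 is a marker of these cells too and a gene of the set. The 4 mesothelial cell and fibroblast markers summed to 7.04 to 16.6 FPKM, both extremes in Model, and the 4 eosinophil markers to 1.42 to 4.17, with Prg2 and Epx at 0 throughout. Of 4 neutrophil markers, S100a9 and Ly6g were listed at 0 throughout, while S100a8 had Control levels of 13.5 and 30.6 FPKM. In Model S100a8 was at 110 and 56.5 FPKM, and in MUS at 64.0 and 50.3, and Mpo was at most 0.0207. The part of these markers in the results was not tested.

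The 2 Control libraries stood apart from each other. Interferon-stimulated genes were higher in Control replicate 2 than in Control replicate 1 for 45 of 47 genes, with a median ratio of 3.33, whereas the median ratio over all genes tested was 1.03. On the log2(FPKM + 1) scale the median difference was 1.46 for the set and 0.04 for all genes tested. Ifit1, which binds foreign RNA ends, was 1.25 FPKM in replicate 1 and 36.1 in replicate 2. Trim25 and Samhd1 were the exceptions, with ratios of 0.884 and 0.98. Early NF-κB target genes differed more, with a median ratio of 9.59 over 11 genes, and Tnf was 8.62 and 183 FPKM.

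Even so, both Control libraries lay below both Model libraries for every gene of the set. Relative to the Model mean, the set had a median of 2.99% in Control replicate 1 and 12.02% in Control replicate 2. Early NF-κB targets had 0.678% and 10.6%. The highest share was that of Ifi207, with 33.7% and 46.5%. For the set as a whole, the comparisons with Control are therefore also given without each of these libraries.

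**Figure D2:**
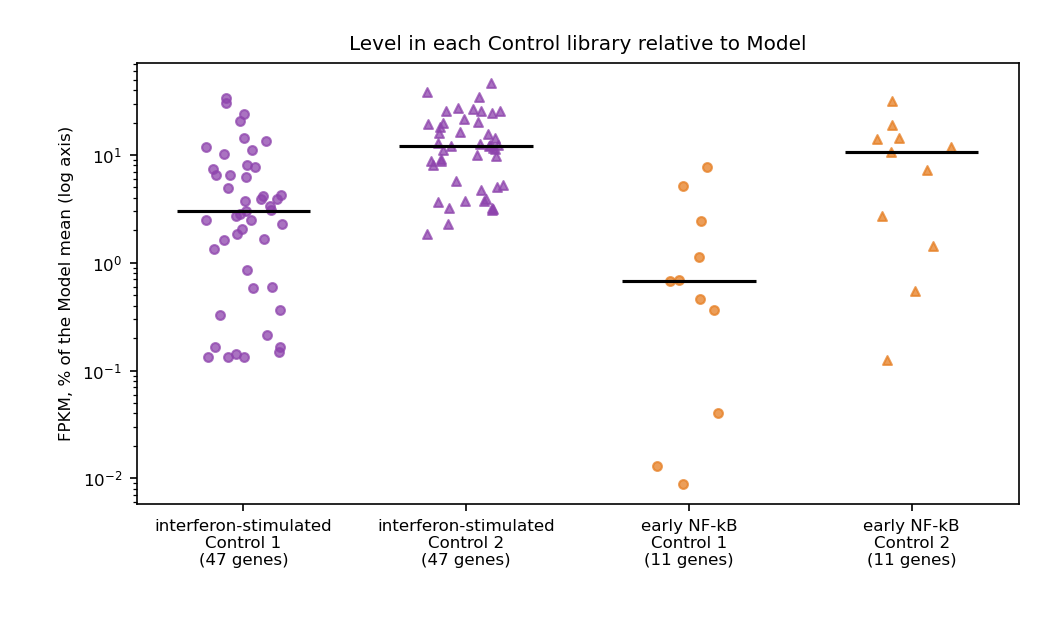
FPKM in each Control library as a percentage of the mean of the 2 Model libraries (log axis), with 1 point per gene and a bar at the median, for the 47 interferon-stimulated genes and 11 early NF-κB targets. Control replicate 2 sat above replicate 1 in both lists, with medians of 12.02% against 2.99% and of 10.6% against 0.678%.

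LPS + ATP raised the whole set. In Model vs. Control all 47 genes were higher, with log2 fold changes from 1.30 to 7.17 and a median of 3.77, while the median over all genes tested was 0.04. All 47 passed the test (limma on log2(FPKM + 1), adjusted p of at most 0.05 and absolute log2 fold change over 1), against 9.5% of the 9794 genes called higher. No gene of the set had overlapping libraries, against 32.6% of genes tested that were higher without overlap. The genes were chosen with earlier results of these data known, so both counts describe the set and do not test it. Ifi44 and Isg20, with Control means of 0.431 and 0.975 FPKM, met the filter only through the treated libraries. The set took 0.289% and 0.735% of all fragments on genes in the Control libraries. Its share was 4.6% and 5.27% in Model, and it was 6.18% and 5.63% in the MUS libraries. In these bulk libraries, more responding cells and more RNA per cell cannot be told apart.

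Without Control replicate 1 the median was 3.0 and 43 genes were called, and without Control replicate 2 it was 4.61 and all 47 were called. Leaving out Model replicate 1 or 2 left 32 or 34 calls. All 47 genes stayed higher in Model under each of the 16 alternatives, and 30 were called under every leave-out of 1 library. The calls that were lost most often were those of Ifi207 (under 11 of the 16), Parp14 (10), Rtp4 (10), Lgals3bp (9), Slfn2 (8) and Rnf213 (7).

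**Figure D3:**
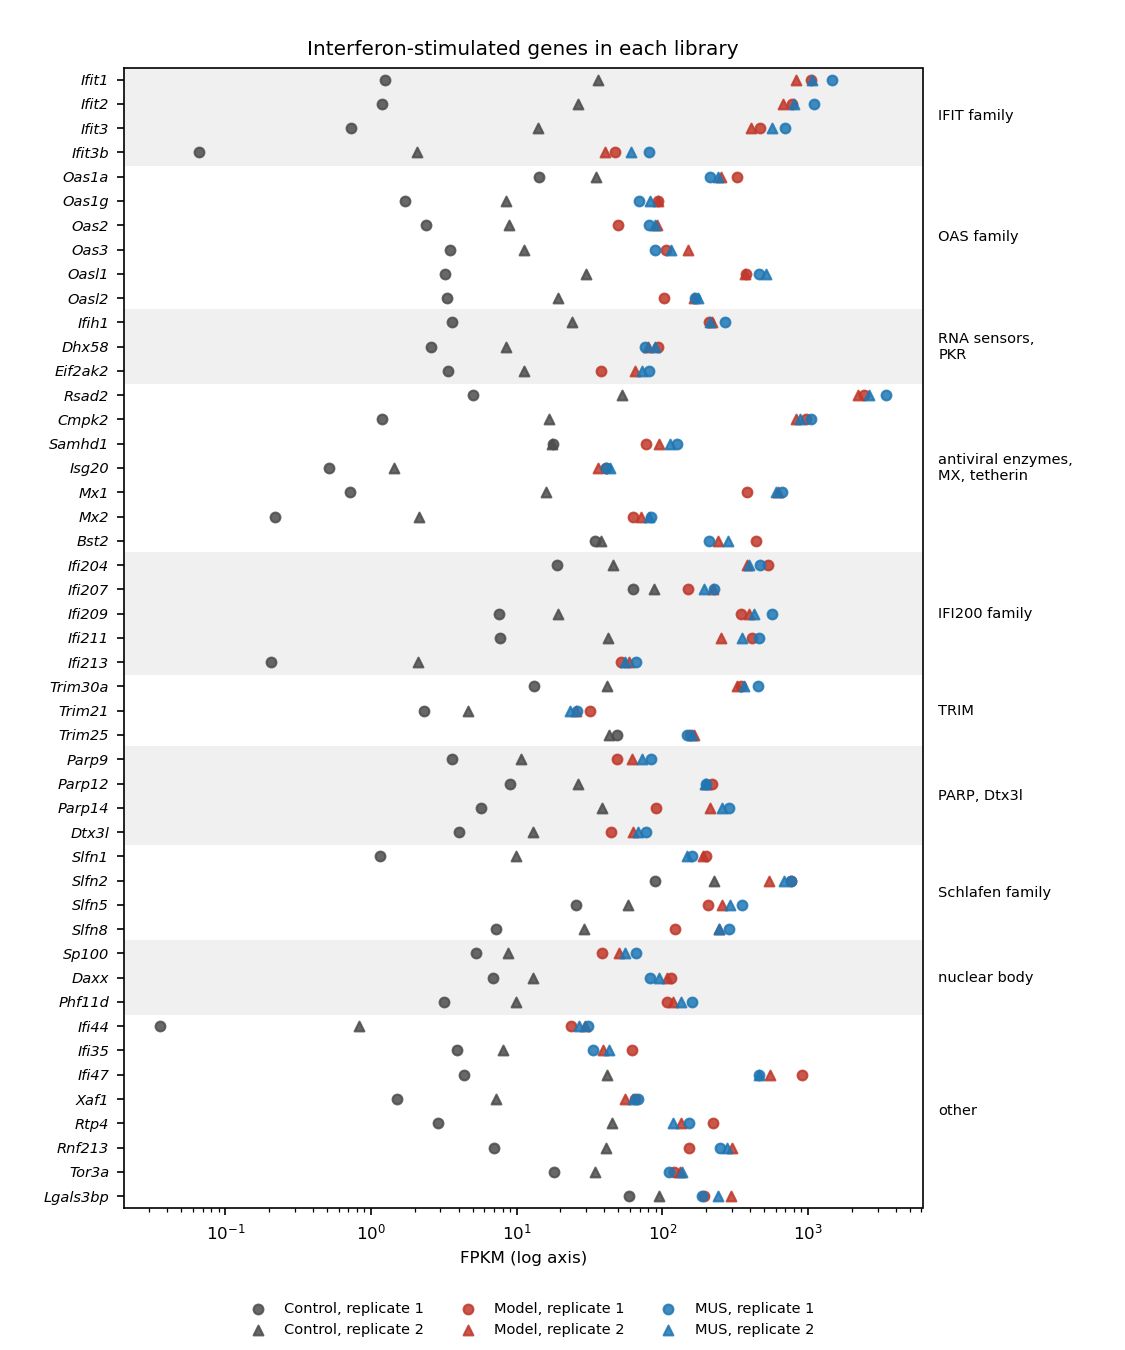
FPKM (log axis) of each of the 47 genes, grouped by role, in the 2 libraries of Control (grey), Model (red) and MUS (blue), with circles for replicate 1 and triangles for replicate 2. Both Control libraries sit to the left of the other 4 for every gene, and the Model and MUS libraries lie close together.

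The IFIT genes, whose proteins bind viral RNA and block its translation, showed large increases in RNA. All 4 genes rose, with log2 fold changes from 4.62 to 6.67. Ifit1 was 1046 and 821 FPKM in Model against 1.25 and 36.1 in Control, a log2 fold change of 6.67 ± 1.13 (SE; limma, adjusted p = 0.0109). Its call was lost without Model replicate 1 or 2 (limma, adjusted p = 0.0723 and 0.0501). Ifit3b had the lowest levels of the 4, with 0.0656 and 2.08 FPKM in Control, the former from 3 fragments, and 47.1 and 40.4 in Model, and rose by 4.62 ± 0.48. Ifit3 and Ifit3b share 51.2% and 45.0% of their 50-base stretches with other genes, nearly all of these with each other, so their split is uncertain.

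Among the OAS genes, whose enzymes make the second messenger 2-5A that activates RNase L, all 6 rose. Oasl1, an OAS-like protein without this enzyme activity, had 3.20 and 29.7 FPKM in Control and 374 and 369 in Model, the largest change of the family at 5.03 ± 0.82 (limma, adjusted p = 0.00951). Oas2 had the smallest log2 fold change, 3.58 ± 0.53, from 2.38 and 8.87 FPKM to 49.99 and 92.3. Oas1a and Oas1g, whose upstream stretches are almost alike above, rose by 3.62 and 4.22 and share 57.6% and 45.7% of their 50-base stretches with relatives.

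The RNA sensors and the kinase PKR rose as well. Ifih1, which encodes the double-stranded RNA sensor MDA5, went from 3.58 and 24.1 FPKM in Control to 209 and 219 in Model (4.32 ± 0.72; limma, adjusted p = 0.0101). Dhx58, which encodes the related LGP2, rose by 3.90. Eif2ak2, which encodes PKR, a kinase that halts translation, went from 3.35 and 11.2 FPKM to 37.8 and 65.2 (2.80 ± 0.51).

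The antiviral enzymes held the 2 largest changes of the set. Cmpk2, a mitochondrial nucleotide kinase, was 1.19 and 16.7 FPKM in Control and 966 and 826 in Model, a log2 fold change of 7.17 ± 0.86 (limma, adjusted p = 0.00388). Its neighbour Rsad2, which encodes viperin, an enzyme that makes a chain-terminating nucleotide, rose by 7.01 ± 0.91 and reached the highest level of the set, 2439 and 2195 FPKM in Model against 4.99 and 53.1 in Control. Mx1 and Mx2, genes of the dynamin-like GTPase family, rose by 6.504 and 5.12. The deposited annotation lists Mx2 as a polymorphic pseudogene, and no MX protein was measured. The exonuclease gene Isg20 rose by 4.36, and Bst2, the tetherin that holds virions at the cell surface, by 3.13. Samhd1, which degrades deoxynucleotides, changed least of the 7 genes. It was 17.8 and 17.4 FPKM in Control, the closest pair in the set, and 77.4 and 95.1 in Model (2.22 ± 0.28; limma, adjusted p = 0.00427).

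The IFI200 family, nuclear proteins of which several sense DNA, had both strong and weak members. Ifi213 rose by 4.87 ± 0.44, from 0.205 and 2.09 FPKM to 51.9 and 59.3. Ifi207 showed the smallest change of the set, 1.30 ± 0.36, with 63.2 and 87.1 FPKM in Control and 151 and 224 in Model. It passed the test narrowly (limma, adjusted p = 0.048) and did not pass with the replicate block (adjusted p = 0.0606). It did not pass without any 1 library other than Control replicate 2 either (limma, adjusted p from 0.0676 to 0.154). Ifi204, Ifi209 and Ifi211 rose by 3.89, 4.81 and 4.06. Reads of Ifi211 are uncertain, since 72.8% of its 50-base stretches occur in other genes. This share was 33.7% for Ifi209, 20.0% for Ifi204, 15.6% for Ifi213 and 7.29% for Ifi207.

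Of the TRIM ubiquitin ligases, Trim30a rose most, from 13.2 and 41.8 FPKM to 346 and 326 (3.77 ± 0.52). The Fc receptor gene Trim21 rose by 2.77. Trim25, which ubiquitinates the RNA sensor RIG-I, was already at 48.8 and 43.1 FPKM in Control and reached 155 and 166 in Model (1.79 ± 0.29; limma, adjusted p = 0.00929).

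The PARP genes encode ADP-ribosyltransferases, and Dtx3l encodes the ubiquitin ligase that partners with PARP9. All 4 genes rose, by between 2.68 and 3.68. Parp12 went from 8.93 and 26.4 FPKM to 220 and 201 (3.68 ± 0.48), and Dtx3l from 4.003 and 12.99 to 44.5 and 62.6 (2.68 ± 0.48). Parp9 and Dtx3l lie on opposite strands and overlap in 458 exonic bases, where the protocol as described, which marks no strand, does not tell their reads apart. Parp14 (3.10 ± 0.81) passed with an adjusted p of 0.0411 (limma), and its Model libraries were far apart at 90.4 and 213 FPKM. Its call, too, was lost without any 1 library other than Control replicate 2 (limma, adjusted p from 0.0881 to 0.143).

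The Schlafen genes, which restrain proliferation and virus translation, differed widely in Control. Slfn1 went from 1.15 and 9.90 FPKM to 200 and 191 in Model (5.35 ± 0.68). Slfn2 had the highest Control level of the set, 89.1 and 228 FPKM, and reached 769 and 543 in Model, so that its log2 fold change was the smallest of the family at 2.17 ± 0.50 (limma, adjusted p = 0.0293). The call of Slfn2 was lost without any 1 library other than Control replicate 2 (limma, adjusted p from 0.0595 to 0.124). Slfn5 and Slfn8 rose by 2.53 and 3.47.

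The nuclear body and chromatin genes rose, Phf11d most (3.17 and 9.96 FPKM to 108 and 118; 4.07 ± 0.46), then the histone chaperone gene Daxx (3.42) and the nuclear body gene Sp100 (5.28 and 8.78 FPKM to 38.7 and 50.5; 2.53 ± 0.32). Of the 8 other genes, the GTPase gene Ifi47 had the largest log2 fold change, from 4.39 and 41.7 FPKM to 912 and 550 (5.55 ± 0.87). Lgals3bp, a secreted galectin ligand, rose least, from 59.3 and 94.2 to 192 and 298 (1.66 ± 0.39; limma, adjusted p = 0.0309), and its call was lost without any 1 library other than Control replicate 2 (adjusted p from 0.0588 to 0.109). Ifi44, Xaf1, Rtp4, Rnf213, Ifi35 and Tor3a lay between them on this scale, at 4.32, 3.75, 3.70, 3.55, 2.91 and 2.29. By the ratio of group means, Ifi44 rose 61.6-fold, from a Control mean of 0.431 FPKM, and Ifi47 rose 31.8-fold. The added 1 FPKM lowers the log2 fold change of low genes. Of the 5 genes with the highest Control means (Slfn2, Lgals3bp, Ifi207, Trim25 and Slfn5), 4 were also among the 5 with the smallest log2 fold changes, the other of those being Samhd1. The Control level is itself part of the fold change, so these orders are not independent.

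The genes with an ISRE core in the promoter window had a median log2 fold change of 4.06 over 17 genes, and those without it 3.75 over 21 genes. The ranges were 1.30 to 7.01 and 1.66 to 7.17. Ifi213 and Ifi207, whose stretches above carry the same core, were at opposite ends of their family.

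Many of the genes are neighbours. With a gap of at most 250 kb, 26 of the 47 genes fell into 8 clusters. The range of log2 fold changes in Model vs. Control was wide in some clusters and narrow in others, and differences between neighbours were not tested. The 5 IFI200 genes on chromosome 1 (173566283 to 173913046, GRCm38) ranged from 1.30 to 4.87, and the 4 Schlafen genes on chromosome 11 (82951349 to 83122670) from 2.17 to 5.35. The Ifit genes on chromosome 19 (34550694 to 34650009) ranged from 4.62 to 6.67. Rsad2 and Cmpk2 on chromosome 12 (26442746 to 26479837) were close, at 7.01 and 7.17. Parp14, Dtx3l and Parp9 on chromosome 16 (35832874 to 35972605) ranged from 2.68 to 3.10.

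The pathway above the set was followed in other genes. Ifnb1, which encodes interferon-β, had no fragment in either Control library, 32 and 8 fragments in Model and 15 and 12 in MUS. These correspond to 3.02 and 0.69 FPKM in Model and 1.32 and 0.99 in MUS. Against the 3 fragments per Control library that a count of 0 allows, or 0.175 FPKM, the Model mean was 10.6-fold higher and the MUS mean 6.6-fold. These ratios leave out the counting error of Model and MUS and so are not lower bounds. Model replicate 2, at 0.69 FPKM, lay nearer to that limit than replicate 1. The mean of Ifnb1 over the 6 libraries was 1.003 FPKM, so it met the filter of 1 FPKM narrowly and only through the Model and MUS libraries. The groups where it was high thus admitted it to the test, and its p-values are a description only. Ifnb1 did not pass in Model (limma, adjusted p = 0.0595), and it passed with the replicate block (limma, adjusted p = 0.0362). Ifna2, Ifna4 and Ifna5 were listed at 0 in all libraries, and Ifna6 had 0.11 FPKM in Model replicate 2 alone.

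Of the receptor genes, Ifnar2 rose from 14.6 and 20.5 FPKM to 48.7 and 48.1 (1.43 ± 0.28; limma, adjusted p = 0.0163), a call lost on leaving out Control replicate 1, Model replicate 1 or either MUS library (limma, adjusted p from 0.0528 to 0.0614). Ifnar1 was 25.4 and 47.2 FPKM in Control and 61.0 and 91.5 in Model (1.08 ± 0.39; limma, adjusted p = 0.0987). Among the signalling and transcription factor genes, Irf7, the factor that amplifies interferon production, rose from 3.08 and 8.07 FPKM to 152 and 157 (4.68 ± 0.41; limma, adjusted p = 0.00157). The ISGF3 genes Stat2 and Irf9 rose by 3.12 ± 0.56 and 1.98 ± 0.34. Irf3, Tyk2 and Jak1 did not pass, nor did Irf1 (limma, adjusted p = 0.0681), which passed with the replicate block (adjusted p = 0.0496).

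All 4 feedback genes rose in Model vs. Control. Isg15 reached 1083 and 592 FPKM from 1.45 and 20.1, and Usp18, whose product shuts off the receptor, 351 and 241 from 1.76 and 7.74. Of 8 genes that carry the TLR4 signal to interferon, Cd14, Ly96 and Tbk1 rose and the other 5 did not pass. The call of Tbk1 was lost with the replicate block (limma, adjusted p = 0.0532). For comparison, all 11 early NF-κB targets rose, with a median of 5.13.

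Muscone was compared with LPS + ATP alone in MUS vs. Model, and no gene of the set passed the test. The log2 fold changes ran from -0.62 for Ifi47 to 0.97 for Parp14, with a median of 0.18 against 0.01 over all genes tested. The lowest adjusted p was 0.717 (limma), and 0 of 47 genes had an unadjusted p under 0.05. Among all genes tested 0 were called (0%), and 8.42% had an unadjusted p under 0.05. No gene of the set was called under any of the 16 alternatives, voom on recovered fragments included.

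For most genes of the set, this fit did not resolve moderate changes. The median half-width of the 95% confidence interval was 1.14 on the log2 scale, against 0.65 over all genes tested. The interval lay within 1 in both directions for 5 genes of the set, which were Isg20, Ifi44, Trim21, Trim25 and Tor3a. For Rsad2 the interval ran from -1.78 to 2.54. The spread in this fit is shared by the 3 groups and so includes the gap between the Control libraries. The median log2 difference of replicate 2 from replicate 1 in the set was 1.46 in Control, -0.008 in Model and -0.16 in MUS. With only the Model and MUS libraries fitted, 0 genes of the set were called (limma, lowest adjusted p = 0.509), and 1 had an unadjusted p under 0.05.

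**Figure D4:**
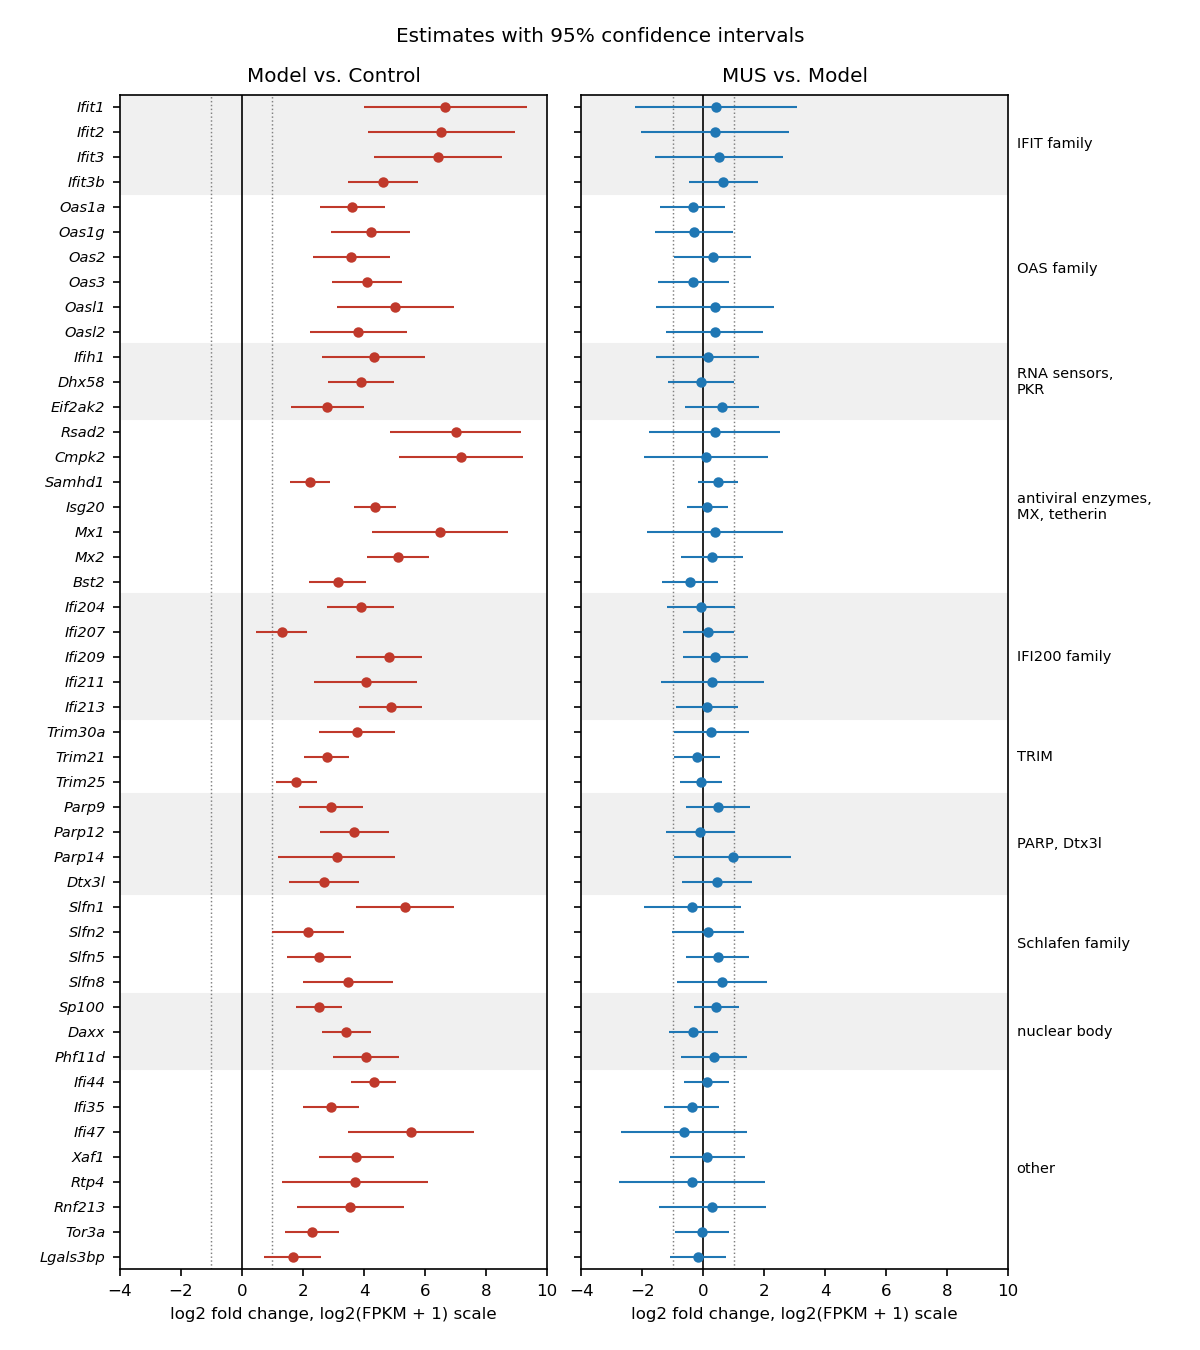
Log2 fold change of each gene on the log2(FPKM + 1) scale in Model vs. Control (left) and MUS vs. Model (right), with bars for the 95% confidence interval and dotted lines at -1 and 1. All intervals lie above 0 on the left and all include 0 on the right.

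In direction, 31 of the 47 genes were higher in MUS and 16 lower, against 5021 higher and 4771 lower of the 9794 genes tested. Within batches, 31 were higher in batch 1 with a median difference of 0.36, and 29 in batch 2 with a median of 0.11. Of all genes tested, 4801 were higher in batch 1 and 4964 in batch 2, with medians of -0.008 and 0.004. The sign was the same in both batches for 35 genes of the set, of which 24 were higher in MUS and 11 lower. This count was not made for all genes. Both MUS libraries were above both Model libraries for 20 genes (42.6%), against 21.2% of all genes tested, and below them for 6 genes (12.8%), against 21%. These 6 were Daxx, Ifi47, Oas1a, Oas1g, Parp12 and Slfn1.

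The 4 Ifit genes were all among the 20. Ifit1 was 1454 and 1069 FPKM in MUS against 1046 and 821 in Model, with a log2 fold change of 0.43 ± 1.13. Ifit3b was 80.6 and 60.8 FPKM against 47.1 and 40.4 (0.67 ± 0.48; limma, adjusted p = 0.76). Rsad2 was 3440 and 2621 FPKM against 2439 and 2195 (0.38 ± 0.91). The 95% intervals of all 3 differences included 0.

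The lowest unadjusted p in the set, 0.127, belonged to Samhd1, with 127 and 114 FPKM in MUS and 77.4 and 95.1 in Model (0.48 ± 0.28; limma, adjusted p = 0.717). Sp100 was 65.5 and 55.3 FPKM against 38.7 and 50.5 (0.44 ± 0.32; limma, adjusted p = 0.764). On the other side, Ifi47 was 460 and 459 FPKM in MUS and 912 and 550 in Model. Oas1a was 213 and 243 against 327 and 254, and Bst2 was 208 and 284 against 441 and 241, with overlapping groups.

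The OAS family was split, with Oas2, Oasl1 and Oasl2 higher and Oas1a, Oas1g and Oas3 lower in MUS. Of the regulators, Irf7 was 230 and 238 FPKM in MUS against 152 and 157 in Model (0.60 ± 0.41; limma, adjusted p = 0.75). Stat2 and Irf9 differed by 0.18 and -0.02. Ifnb1 differed by -0.28 ± 0.41, and the direction turned on 1 library, with 0.35 without Model replicate 1 and -0.91 without Model replicate 2. The cytokine signalling inhibitors Socs1 and Socs3 had differences of -1.65 ± 0.25 and -1.51 ± 0.58 and were not called (limma, adjusted p = 0.257 and 0.537). All 11 early NF-κB targets had differences below 0, with a median of -0.16, and none was called.

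The 2 Model libraries differed from each other with gene length. Of the 13 genes of the set longer than 5 kb, all 13 were higher in Model replicate 2 than in replicate 1, with a median ratio of 1.3, whereas 10 of the 34 shorter genes were, with a median ratio of 0.887. The ratio reached 2.35 for Parp14, 1.99 for Slfn8, which is under 5 kb, and 1.97 for Rnf213, a very large ubiquitin ligase, and was lowest for Bst2, the shortest gene, at 0.547. Across the 47 genes, Spearman's rank correlation of length with the log2 difference was 0.68, and over all genes tested 0.40. These points share the same 2 libraries.

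Against MUS, length was related to the difference in batch 1 and hardly in batch 2. The rank correlation was 0.54 between length and the difference of MUS replicate 1 from Model replicate 1, and -0.14 for replicate 2. Over all genes tested these correlations were 0.34 and -0.07. Genes over 5 kb had a median MUS to Model ratio of 1.64 in batch 1 and 1.06 in batch 2, and shorter genes 1.07 and 1.09. Of the 13 genes over 5 kb, 7 were among the 20 with both MUS libraries above both Model libraries. None of the 13 (0) was among the 6 with both below. Parp14, the largest positive value of the comparison, was 90.4 and 213 FPKM in Model and 288 and 258 in MUS, so that its ratio within a batch depended on Model replicate 1. The part of length in the differences was not tested. Without Model replicate 1 the median of the set was 0.13, and without Model replicate 2 it was 0.23.

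**Figure D5:**
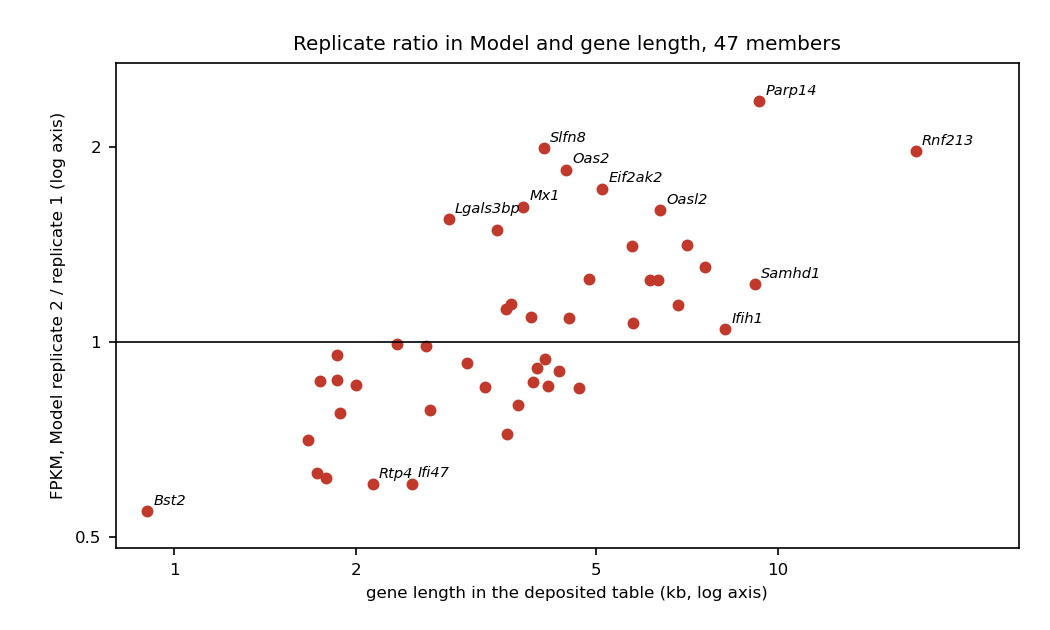
Ratio of FPKM in Model replicate 2 to Model replicate 1 (log axis) against gene length in kb (log axis), with 1 point for each of the 47 genes and a line at a ratio of 1. All 13 genes longer than 5 kb lie above the line, and Bst2 lies lowest at 0.547.

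In MUS vs. Control all 47 genes were higher and 46 were called (limma; 11.3% of genes tested were called higher), with a median of 3.90. Libraries did not overlap for any gene of the set, against 39.6% of genes tested that were higher without overlap. The choice of the genes with earlier results known limits these counts too. This comparison shares its Control libraries with Model vs. Control, so the 2 are given side by side only. Cmpk2 had log2 fold changes of 7.17 in Model vs. Control and 7.27 in MUS vs. Control, and Rsad2 had 7.01 and 7.38. Ifi207 had 1.30 and 1.47, and Trim25 had 1.79 and 1.72. Rtp4, a receptor-transporting protein, was the gene not called (3.34 ± 1.01; limma, adjusted p = 0.0522), and it was called with the replicate block (adjusted p = 0.0367). Its Control libraries were 2.89 and 45.3 FPKM. Without Control replicate 1 the median was 3.09 with 44 calls, and without Control replicate 2 it was 4.84 with 47 calls. Ifnar1 was not called (1.19 ± 0.39; limma, adjusted p = 0.0626) and was called with the replicate block (adjusted p = 0.0425). Without MUS replicate 1 the number of calls in the set fell to 12, while all 47 genes stayed higher, and without MUS replicate 2 it was 35.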

How the data were processed

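Poly-A RNA-seq of mouse peritoneal macrophages was analysed in 3 groups of 2 libraries, taken from the treatment labels. The authors deposited 1 table of FPKM per gene and library. The methods name RSEM for quantification, whereas the submitters' processing notes name HISAT2, featureCounts 1.5.0-p3 and GRCm39. Which of these made the table is not given in the sources used here. Gene positions matched GENCODE M21 (GRCm38) for 98.3% of 54495 shared identifiers and for 46 of the 47 genes of the set, so GRCm38 coordinates are printed. FPKM times gene length was a whole multiple of 1 step for 100% of values in each library, within 0.1 of the step, so that fragments were recovered from the deposited FPKM. The per-million scale was 1.45 and 1.34 times the fragments on genes in Control and 0.909 to 0.998 times in the other libraries. A gene of 1 kb with 3 fragments would have 0.131 to 0.213 FPKM, and such limits cover counting error only. All 6 columns were used, and 0 were without a sample.

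The fit was limma 3.58.1 in R 4.3.3 (lmFit, contrasts.fit, eBayes with a trend) on log2(FPKM + 1) of 9794 genes, with 3 residual and 4.04 prior degrees of freedom, all 6 libraries in 1 model and Benjamini-Hochberg adjustment over all genes tested. Fold changes on this scale understate the change of low genes. An exact permutation test of 2 against 2 libraries cannot give p below 0.333 (two-sided) and was not used. A gene was called where its adjusted p was 0.05 or less and its log2 fold change exceeded 1 in size. Scripts were tested on simulated data. Summaries and figures used Python 3.11.15, NumPy 2.4.6, pandas 2.3.3, SciPy 1.17.1 and Matplotlib 3.10.9. Alternatives changed the pseudocount, filter, scaling, libraries, trend, replicate block and kind of value.

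The labels give the replicate number as the batch. The replicate differences of same-numbered libraries correlated at 0.12 (Control and Model), 0.14 (Model and MUS) and -0.09 (Control and MUS) across genes.

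The members and lists were chosen with earlier results of these data known. Genes named with values are, per role group, the largest and smallest change in Model vs. Control, the 3 lowest p-values in MUS vs. Model, Ifnb1, Ifnar1, Ifnar2, Stat2, Irf9 and Irf7. A further pathway gene of this rule is not reported here. Other genes with values, such as Rsad2, Oas1a, Bst2, Parp14, Rtp4 and Irf1, were added after their values were seen. Shared 50-base stretches were counted in GENCODE M21 transcripts. Promoters are from RefSeq (GRCm38.p6).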

Additional observations from a re-analysis of the deposited data

How the results depend on the processing

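The direction of all 47 genes in Model vs. Control and in MUS vs. Control held under each of the 16 alternatives, while the number of calls depended on them. Without a filter, which tests 30192 genes, 16 genes of the set were called in Model vs. Control and 21 in MUS vs. Control. Leaving out 1 library gave 32 to 47 calls in Model vs. Control and 12 to 47 in MUS vs. Control, the lowest without Model replicate 1 and without MUS replicate 1, and medians of 3.0 to 4.61, 0.11 to 0.25 (MUS vs. Model) and 3.09 to 4.84. In MUS vs. Model 0 were called throughout.

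Scaling to the fragments on genes moved the median of all genes in Model vs. Control from 0.04 to -0.42. It moved that of the set from 3.77 to 3.32, or from 3.73 to 3.74 relative to all genes, with 43 genes called. Under this scaling 647 genes were called higher and 1633 lower among all genes, against 930 and 545 as deposited. With quantile normalization 707 were called higher and 715 lower, the median of the set in MUS vs. Model was 0.30, and 36 genes had a positive difference instead of 31.

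Over all genes, calls in Model vs. Control were 1475 in the reported fit, 260 without a filter, 2280 with fragment-total scaling, 797 with only the 2 groups compared and 692 to 2077 on leaving out 1 library. In MUS vs. Control they were 1980, 456 without a filter, 2981 with voom and 184 to 2398 on leaving out 1 library. In MUS vs. Model they were 0, 1 with a pseudocount of 0.1, 7 with only the 2 groups compared and 0 to 31 on leaving out 1 library. The causes were not tested.

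With the replicate block, 46, 0 and 47 genes of the set were called in Model vs. Control, MUS vs. Model and MUS vs. Control, and 4 genes of all in MUS vs. Model. Of the genes named by rule, the block changed the calls of Ifi207 and Ifnb1 in Model vs. Control and of Ifnar1 in MUS vs. Control. Among the other genes of the set and the pathway it changed those of Irf1 and Tbk1 in Model vs. Control and Rtp4 in MUS vs. Control, and no other call. Depth limits the low Control values, since the lowest recovered count was 3 fragments in Control replicate 1 and 871 in any Model or MUS library.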
